A study of Caenorhabditis elegans with 20 samples.

Results

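Gene expression was compared between *Δdhgd-1* mutants and wild-type animals of *C. elegans* that were both raised with vitamin B12. The 10 libraries whose labels name the supplement were taken from the 20 RNA-seq libraries of the study, 5 of mutants and 5 of wild type. The mutants carry *dhgd-1(tm6671)*, which removes sequence at the 5′ end of the D-2-hydroxyglutarate dehydrogenase gene. It is a single allele, crossed back to the N2 wild type. All stocks had been kept with the vitamin before the experiment. Both groups were day 1 adults kept on *E. coli* OP50 with 64 nM adenosylcobalamin, and RNA came from their bodies after the cuticle was opened, without the eggs. The other 10 libraries are the same strains without the supplement. They share the model's estimate of the spread and serve below as the reference for what the supplement changed. The comparison asks which strain differences are present when vitamin B12 is supplied.

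DHGD-1 oxidizes D-2-hydroxyglutarate to α-ketoglutarate. Animals break down propionate, a product of branched-chain amino acid, methionine and odd-chain fatty acid catabolism, by a canonical pathway that needs vitamin B12. When the vitamin is scarce *C. elegans* turns on an alternative route, the propionate shunt, whose hydroxyacid-oxoacid transhydrogenase HPHD-1 yields the D-2-hydroxyglutarate that DHGD-1 removes. In wild-type animals the shunt genes are known to be repressed by the vitamin. Leucine, lysine and fatty acid breakdown feed the ketone bodies acetoacetate and 3-hydroxybutyrate.

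Library totals were 3835215 to 15457950 counts in the supplemented mutants (median 11749472) and 2837943 to 11073494 in the supplemented wild type (median 10650595). Values below are CPM (counts scaled to the library total, not per length), and lists of 5 values give replicates 1, 2, 5, 6 and 7 in that order. Replicates 1 and 2 belong to a series of libraries named olga and replicates 5, 6 and 7 to a series named s. This split was the largest source of variation, since the first principal component of the 10 libraries (41.2% of the variance) separated the series. The second component (20.4%) set wild-type replicate 7 apart from the other 9 libraries. The labels call the replicates biological and do not say how far apart they were raised, so the p-values measure the spread between these samples. Bodies hold many cell types, and fewer cells of a type cannot be told apart from less RNA per cell.

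Supplemented *Δdhgd-1* mutants had higher levels of 39 (0.346%) and lower levels of 23 (0.204%) of the 11270 genes tested, and 765 had an unadjusted p under 0.05. Calls required an adjusted p below 0.05 in edgeR's quasi-likelihood test and a fold change over 1.5. Called genes of related function included 3 genes of the propionate shunt, enzymes of acyl-CoA and 2-carbon metabolism (*acdh-2*, *acs-2*, *C05C10.3* and *icl-1*), 5 genes of dehydrogenases or related proteins (*dhs-25*, *F20G2.1*, *C06E4.3*, *D1054.8* and *nta-1*) and 3 genes of UDP-glucuronosyltransferases. Groups outside the fixed lists were drawn after the values were seen. Changes were large, with 24 genes over 4-fold higher and 12 over 4-fold lower, while over all genes the log2 fold changes had a median of 0.01. The 10 libraries of the 2 groups did not overlap in 27 of the higher and 13 of the lower genes, against 0.524% and 0.328% of all genes tested. With a replicate block instead of the series term, 62 genes were higher and 45 lower, and all 62 genes called without the block were among them. Leaving out mutant replicate 5 reduced the calls to 24 higher and 12 lower genes, and leaving out wild-type replicate 1 or 2 reduced the higher genes to 25 each. Without replicate 7 of both strains, an alternative added after the data were seen, 35 genes were higher and 22 lower.

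**Figure D1:**
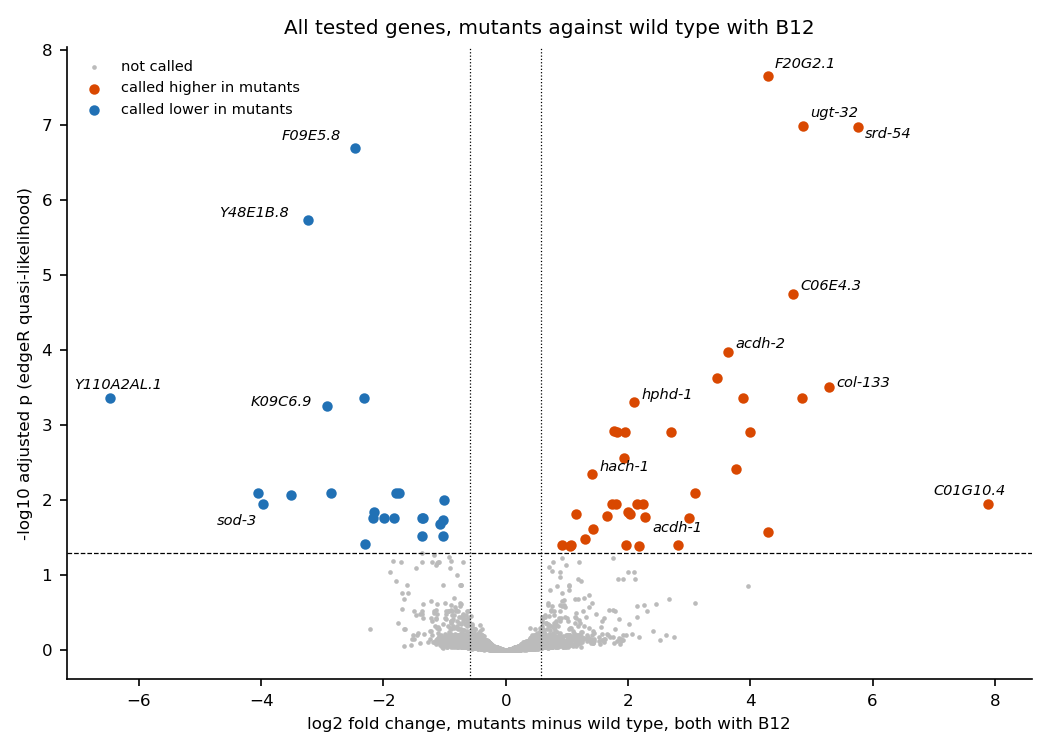
Each point is one of the 11270 tested genes, placed by its log2 fold change between supplemented mutants and supplemented wild type (horizontal) and by the negative log10 of its adjusted p in edgeR's quasi-likelihood test (vertical). The dashed line marks an adjusted p of 0.05 and the dotted lines a fold change of 1.5. The 39 higher genes (orange) reach lower adjusted p-values and larger folds than the 23 lower genes (blue), with *F20G2.1* at the top.

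*dhgd-1* itself did not pass the test. Its level was 8.1, 7.53, 9.21, 5.87 and 8.45 CPM in wild type and 11, 18.8, 22.5, 13.1 and 5.86 CPM in mutants. The mutant values were higher in replicates 1, 2, 5 and 6 and lower in replicate 7, with a log2 fold change of 0.80 (standard error, SE, 0.29, adjusted p = 0.5). The libraries were made with a method that reads the 3′ ends of transcripts, and the deletion lies in the 5′ end, so these counts cannot check the genotype labels. The gene for a subunit of the general transcription factor TFIIE, *gtf-2E2* (chromosome II, 11540773 to 11542495), lies within the annotated span of *dhgd-1* (11538895 to 11552081) on the same strand. Its level was 16.6, 18.1, 28.4, 20.9 and 42.7 CPM in wild type and 13.9, 11.7, 13.4, 10.2 and 14.5 CPM in mutants, lower in every mutant library than in any wild-type library. The log2 fold change of *gtf-2E2* was -1.0 (SE 0.19, adjusted p = 0.00996), and without mutant replicate 6 it no longer passed (adjusted p = 0.065). How reads of 2 genes that share a strand were divided is not known from the counts. Positions in the text are those of the WBcel235 annotation.

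The propionate shunt was higher in supplemented mutants. Of its 5 genes, 3 were called higher and none lower, the median log2 fold change was 1.41, and the summed level was 637.6 to 1508 CPM in mutants against 339.3 to 719.2 CPM in wild type. All 5 had an unadjusted p under 0.05, and with the replicate block all 5 were called. The list comes from earlier knowledge of the pathway, and it was chosen here with results of these data known.

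*acdh-1*, the acyl-CoA dehydrogenase of the first step and the gene whose promoter is widely used to report on vitamin B12, had 12, 6.40, 30.2, 6.51 and 5.82 CPM in wild type and 36.9, 110.03, 112, 42.2 and 14.5 CPM in mutants. Mutant replicates 2 and 5 stood highest, and mutant replicate 7 lay below wild-type replicate 5, so the groups overlapped although every mutant library exceeded the wild-type library of its own number. The log2 fold change was 2.27 (SE 0.47, adjusted p = 0.0165). *hphd-1*, which oxidizes 3-hydroxypropionate and makes D-2-hydroxyglutarate, had 22.6, 13.7, 16.9, 6.33 and 4.51 CPM in wild type and 81.9, 86.8, 61.2, 38.9 and 19.5 CPM in mutants. Again each mutant library exceeded its partner, and only mutant replicate 7 fell under the highest wild-type value. For *hphd-1* the log2 fold change was 2.1 (SE 0.31, adjusted p = 0.000493), the lowest adjusted p of the 5. *hach-1*, the hydrolase that releases 3-hydroxypropionate from its CoA ester, had 80.3, 132, 109, 49.996 and 64.4 CPM in wild type and 311, 371, 287, 179.7 and 95.5 CPM in mutants, a log2 fold change of 1.41 (SE 0.25, adjusted p = 0.0045). Mutant replicate 7 was the lowest mutant library for each of these genes.

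The remaining shunt genes differed less. *ech-6*, the enoyl-CoA hydratase of the second step, had 124, 145, 154, 79.7 and 127 CPM in wild type and 169.9, 305, 268, 196 and 169 CPM in mutants. All 5 mutant values lay above all 5 wild-type values, with a log2 fold change of 0.77 (SE 0.19, adjusted p = 0.0659, or 0.0365 with the replicate block). *alh-8*, the aldehyde dehydrogenase that makes acetyl-CoA from malonic semialdehyde, had 355, 402, 408, 225 and 138 CPM in wild type and 716, 636, 506, 358 and 339 CPM in mutants. Its groups overlapped, and the log2 fold change of 0.65 (SE 0.23) had an adjusted p of 0.426, or 0.0492 with the block. The call of *acdh-1* was lost when wild-type replicate 1, 2 or 6 or mutant replicate 2 or 5 was left out (adjusted p up to 0.127). Without a term for the library series *hach-1* lost its call (adjusted p = 0.136). Fitted in the 10 supplemented libraries alone, *acdh-1* was not called (adjusted p = 0.128), while *hphd-1* and *hach-1* kept their calls (adjusted p = 0.017 and 0.0441). None of these genes was called within either series alone.

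**Figure D2:**
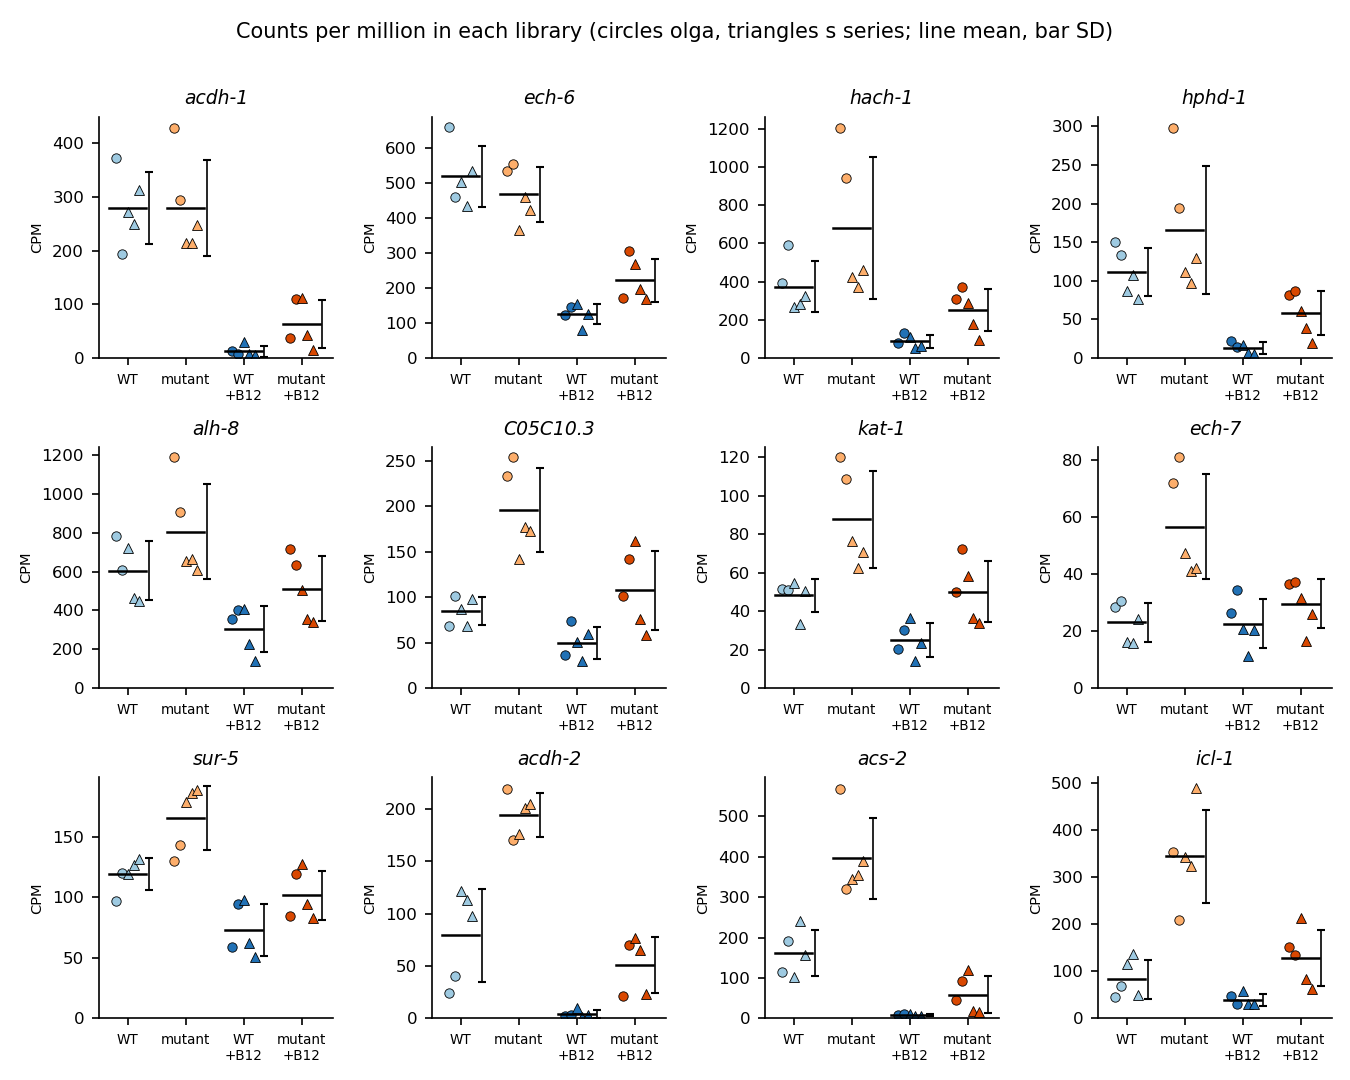
Each panel gives the CPM of one gene in the 20 libraries, by group, with circles for the olga and triangles for the s series, a line at the mean and a bar of 1 SD (n = 5). The mean of the supplemented mutants (dark orange) lies above that of supplemented wild type (dark blue) in all 5 shunt genes, in *hphd-1* at 57.7 ± 28.5 against 12.804 ± 7.47 CPM, and their libraries do not overlap in *ech-6*, while the unsupplemented groups (pale) overlap in *acdh-1*.

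By mean level, all 5 shunt genes stood lower in supplemented mutants than in unsupplemented animals of either strain. *acdh-1* averaged 279.6 ± 89.5 CPM (SD, n = 5) in unsupplemented mutants and 280.0 ± 67.5 in unsupplemented wild type, against 63.1 ± 44.9 and 12.2 ± 10.36 CPM with the vitamin. In the same order, *hach-1* averaged 679.8 ± 372 and 372 ± 133.2 CPM without the vitamin and 249 ± 110.2 and 87.1 ± 33.2 with it. Without vitamin B12 *acdh-1* had a log2 fold change between the strains of -0.16 (adjusted p = 0.917), *ech-6* of -0.29 (adjusted p = 0.515) and *hphd-1* of 0.36 (adjusted p = 0.636). The test of whether the strain difference itself depends on the vitamin gave a difference in *acdh-1* of 2.43, in *ech-6* of 1.06 and in *hphd-1* of 1.74, with adjusted p of 0.325, 0.281 and 0.281, so it did not pass.

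Of the 4 ketone body genes outside the shunt, only *C05C10.3* was called. With DESeq2, the tool that the study used, *kat-1* was called higher as well (adjusted p = 0.00766). The study took its gene categories from an earlier annotation. On these libraries it reported ketone body genes as higher in mutants than in wild type, with and without the vitamin. The direction of these 4 genes is therefore not independent evidence. *C05C10.3*, which resembles the human 3-oxoacid CoA-transferase OXCT1 that activates acetoacetate, had 36.6, 73.4, 51.2, 29.4 and 59.2 CPM in wild type and 101, 142, 162, 76.3 and 58.4 CPM in mutants. It was higher in 4 of 5 mutant libraries than in the wild-type library of the same number, and near equal in replicate 7, with a log2 fold change of 1.06 (SE 0.24, adjusted p = 0.0389). Leaving out wild-type replicate 1, 5 or 6 or mutant replicate 2, 5 or 6 ended this call (adjusted p up to 0.252). The gene overlaps *pho-11* on the opposite strand.

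The acetoacetyl-CoA thiolase gene *kat-1* had 20.4, 30.1, 36.7, 14 and 23.5 CPM in wild type and 49.7, 72.5, 58.3, 36.6 and 33.9 CPM in mutants. Mutant replicates 6 and 7 lay just below the highest wild-type value and the other 3 above it, with a log2 fold change of 0.93 (SE 0.22, adjusted p = 0.0593, or 0.00507 with the block). *sur-5*, an acetoacetyl-CoA synthetase gene, had 59.2, 94.7, 97.5, 62.4 and 51.1 CPM in wild type and 84.8, 119.2, 127, 94.1 and 82.8 CPM in mutants. Here the groups overlapped, and the log2 fold change was 0.41 (SE 0.20, adjusted p = 0.74). *ech-7*, an enoyl-CoA hydratase gene, had 26.4, 34.5, 20.8, 11.1 and 20.6 CPM in wild type and 36.6, 37.3, 31.7, 16.50 and 26.1 CPM in mutants, a log2 fold change of 0.36 (SE 0.18, adjusted p = 0.758). Without the vitamin *ech-7* was called higher in mutants (log2 fold change 1.15, adjusted p = 0.000577), and the difference between the strain effects was -0.78 (adjusted p = 0.721). In 6 other tested genes of ketone body and acetoacetyl-CoA metabolism none was called, with a median log2 fold change of 0.08.

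*acdh-2*, *acs-2* and *icl-1* were each the single call of a larger list. *acdh-2* (chromosome II, 5544778 to 5547492), an acyl-CoA dehydrogenase gene that resembles human ACADSB, had 2.11, 3.39, 10.29, 1.47 and 2.91 CPM in wild type and 21.1, 69.6, 76.3, 65.0 and 23.4 CPM in mutants. Every mutant library lay above every wild-type library, and wild-type replicate 5 was the highest of its group, as it was for *acdh-1*. The log2 fold change of *acdh-2* was 3.64 (SE 0.47, adjusted p = 0.000104). The insulin-like peptide gene *ins-13* (5544512 to 5544864) overlaps *acdh-2* on the same strand and had 0, 0, 1.54, 0 and 0.282 CPM in wild type and 1.59, 4.43, 9.36, 10.7 and 1.88 CPM in mutants. Its groups were likewise apart, with a log2 fold change of 3.76 (SE 0.66, adjusted p = 0.00376). The 2 genes may share reads at the overlapping end, and they are not counted here as separate evidence.

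*acs-2*, an acyl-CoA synthetase gene of mitochondrial fatty acid oxidation that is known to rise in fasting, had 7.40, 10.5, 11.2, 6.60 and 6.38 CPM in wild type and 45.9, 93.3, 119.1, 18.9 and 15.3 CPM in mutants. The groups did not overlap, and mutant replicates 6 and 7 were well below the other 3 mutant libraries. Its log2 fold change was 2.70 (SE 0.43, adjusted p = 0.00122). *icl-1*, the bifunctional isocitrate lyase and malate synthase of the glyoxylate cycle, had 46.5, 31.1, 57, 31.1 and 30.2 CPM in wild type and 151, 134, 213, 83.4 and 61.4 CPM in mutants. All mutant values exceeded all wild-type values, with a log2 fold change of 1.65 (SE 0.34, adjusted p = 0.0161). *icl-1* lost its call without wild-type replicate 2 or mutant replicate 5 (adjusted p up to 0.097). It was the single gene called among 25 of the tricarboxylic acid cycle and 2-oxoglutarate use (median 0.09), *acdh-2* the single one among 26 of fatty acid breakdown (median 0.02) and *acs-2* the single one among 15 acyl-CoA synthetases (median 0.05).

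No gene was called in the lists for the steps beside the shunt, where 0.55% of all 11270 tested genes were called in either direction. None of the 8 genes of the canonical propionate pathway and of vitamin B12 handling was called, and their log2 fold changes ran from -0.19 (*mmaa-1*) to 0.38 (*mmcm-1*, the methylmalonyl-CoA mutase that uses the vitamin), with a median of 0.07. None of 14 genes of the methionine and S-adenosylmethionine cycle was called (median -0.13), none of 7 in lysine breakdown (median 0.02) and none of 14 in branched-chain amino acid breakdown (median 0.15). The extremes were *cth-1* at 0.87 (adjusted p = 0.636), *alh-9* at -0.69 (adjusted p = 0.0659) and *acdh-9* at 0.98 (adjusted p = 0.0728). With the replicate block *acdh-9* was called higher and *alh-9* lower. Among 15 regulators of the shunt and of the low-methionine response none was called (13 with a positive and 2 with a negative log2 fold change, median 0.21). Over all genes tested 5712 were positive and 5558 negative, and only 1 of the 15 regulators had an unadjusted p under 0.05. The highest regulator was the transcription factor gene *pqm-1* at 0.74 (adjusted p = 0.696).

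Among the called genes, 5 encode oxidoreductases of the short-chain dehydrogenase type or related proteins, a grouping made after the values were seen. Tested genes of this type were not counted, so the share of them that was called is not known. *F20G2.1*, which holds a short-chain dehydrogenase domain, had 2.11, 0.753, 0.903, 1.1 and 0.939 CPM in wild type and 55.8, 37.8, 20.7, 13.2 and 12 CPM in mutants. The groups were well apart, and the mutant olga libraries were the highest, with a log2 fold change of 4.29 (SE 0.33, adjusted p = 2.17e-08). The adjusted p of *F20G2.1* was the lowest of all 11270 genes. *C06E4.3*, which resembles human HSD17B14, had 0, 0, 0.0903, 0.275 and 0.188 CPM in wild type and 8.35, 5.74, 4.85, 2.78 and 2.33 CPM in mutants, a log2 fold change of 4.69 (SE 0.55, adjusted p = 1.77e-05). Wild-type libraries held at most 3 counts of *C06E4.3*, and it overlaps *glb-2* on the opposite strand.

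3 further genes of this type were called. *D1054.8* and *nta-1*, both like human HSD17B14, had log2 fold changes of 1.82 and 2.15 (adjusted p = 0.00122 and 0.0112), and *dhs-25*, like human HSD17B8, one of 1.81 (adjusted p = 0.0111). *D1054.8* had 5.64, 6.78, 5.33, 1.47 and 6.38 CPM in wild type and 32.9, 32.9, 15.4, 7.05 and 16.52 CPM in mutants, with no overlap of the groups. Only *dhs-25* is named as a member of the dhs family, where it was the single gene called among 26 (median -0.14). Calls of *dhs-25* and *nta-1* were lost without a library: wild-type replicate 1 or mutant replicate 2 or 5 for *dhs-25* (adjusted p up to 0.073) and wild-type replicate 2 or mutant replicate 1 for *nta-1* (adjusted p up to 0.075).

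UDP-glucuronosyltransferases, which couple sugars to small molecules, went in both directions. Of 49 tested, *ugt-32* was higher and *ugt-63* and *ugt-65* lower (6.12% called, beside 0.55% of all genes tested, median of the family 0.03). *ugt-32* had 1.06, 0.941, 1.35, 0.55 and 0.751 CPM in wild type and 22, 23.7, 25.5, 21.3 and 46.9 CPM in mutants. Mutant replicate 7 was far above the other mutant libraries, and all of them were far above wild type, with a log2 fold change of 4.86 (SE 0.41, adjusted p = 1.02e-07). *ugt-63* had 17.3, 17.7, 21.6, 13.9 and 20.7 CPM in wild type and 3.58, 1.56, 1.45, 4.20 and 8.94 CPM in mutants, with no overlap and a log2 fold change of -2.17 (SE 0.45, adjusted p = 0.0171). The smallest of the 3 was that of *ugt-65*, -1.02 (adjusted p = 0.0295), which overlaps *col-130* and a noncoding RNA on the opposite strand. *ugt-63* lost its call without mutant replicate 1, 2 or 5 (adjusted p up to 0.075) and *ugt-65* without any of 8 libraries. Cytochromes P450 (34 tested) and glutathione S-transferases (25 tested) held no called gene, with medians of -0.24 and -0.14. With 0.55% of all genes tested called, the lack of a call among so few genes says little.

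The largest rises among genes that met the naming rule, a mean count of 20 or more and the same direction in 5 of 5 pairs, include genes near silence in supplemented wild type. *srd-54*, of a chemoreceptor family, had 0, 0, 0, 0.0917 and 0.282 CPM in wild type and 4.64, 6.26, 5.7, 6.02 and 7.06 CPM in mutants, at most 3 counts in any wild-type library. The mutant values were close together, with a log2 fold change of 5.75 (SE 0.50, adjusted p = 1.04e-07), and *kcc-3* overlaps it on the opposite strand. *col-133*, a cuticle collagen gene, had 0.352, 0.377, 0.813, 0 and 0.0939 CPM in wild type and 9.68, 6.78, 9.79, 19.1 and 17 CPM in mutants. Mutant replicates 6 and 7 were highest, and the log2 fold change was 5.28 (SE 0.74, adjusted p = 0.000303). *C01G10.4*, whose mean count was below 20, had no count in any of the 5 wild-type libraries and 8.75, 6.52, 1.45, 0.259 and 4.81 CPM in mutants, or at least 8.89-fold above wild type if each wild-type library is set to the floor of 3 counts.

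**Figure D3:**
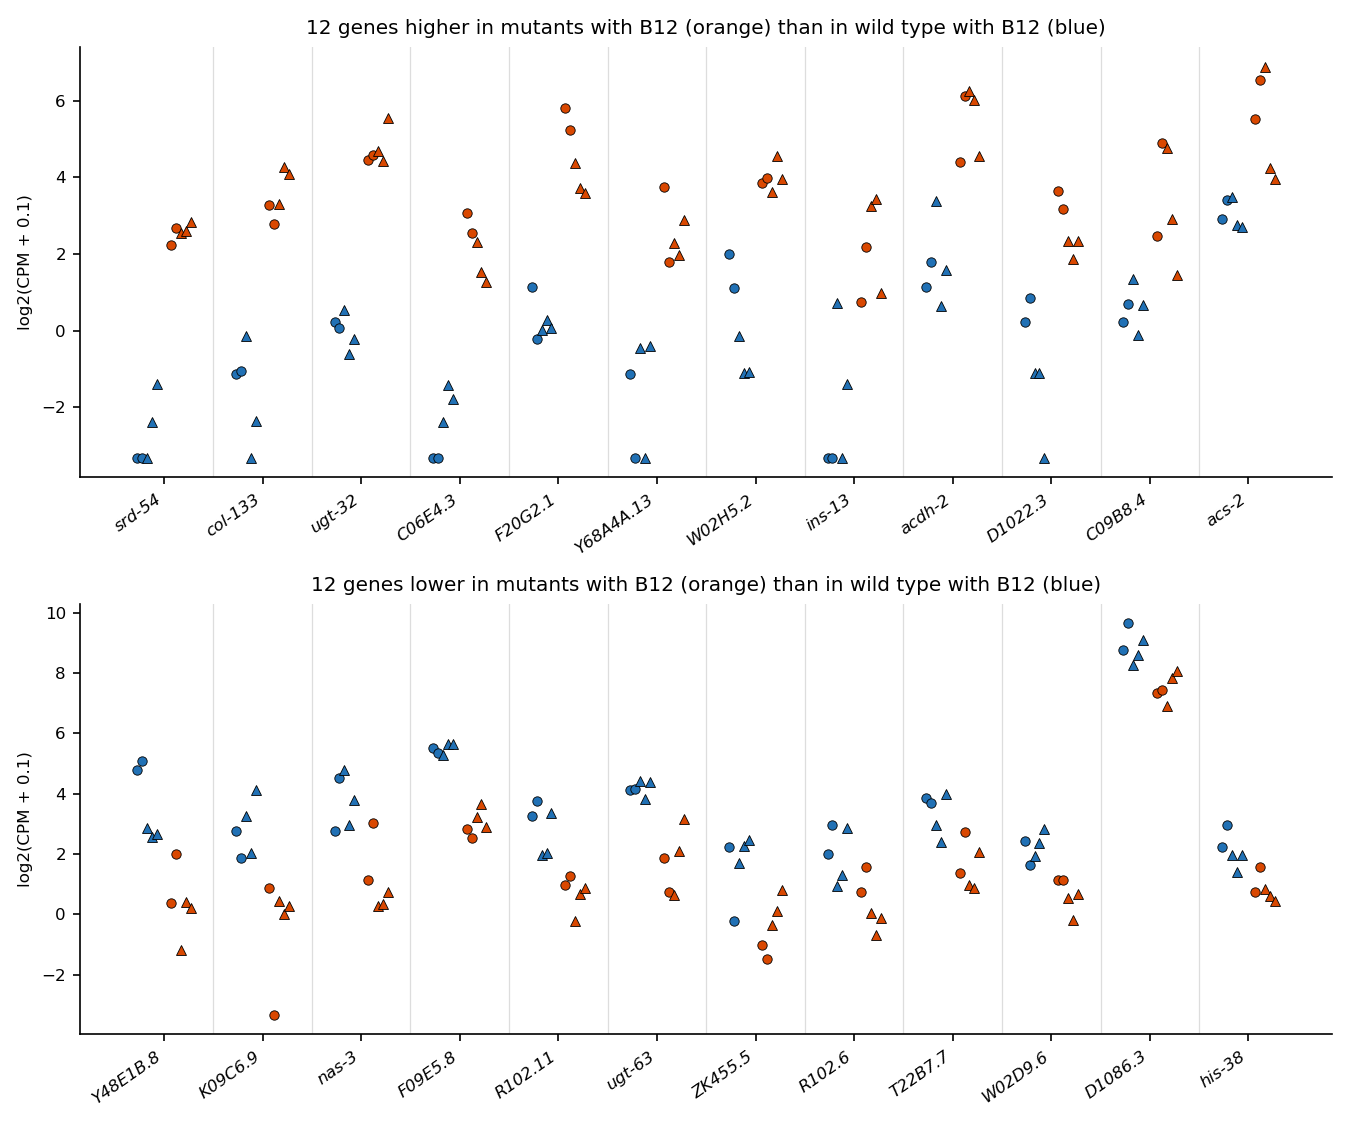
The 12 largest differences in each direction under the naming rule are shown as log2 of CPM plus 0.1 for every supplemented library, wild type in blue and mutants in orange, with circles for the olga and triangles for the s series. Points at the bottom are libraries with no count. The groups do not overlap in any of the 12 higher genes and overlap in 5 of the 12 lower genes.

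W02H5.2, Y68A4A.13, D1022.3 and C09B8.4 complete the 12 largest rises under this rule, which leaves out genes of lower mean count described further on. *W02H5.2*, which resembles human kaptin, had 3.88, 2.07, 0.813, 0.367 and 0.376 CPM in wild type and 14.4, 15.6, 12.1, 23.7 and 15.3 CPM in mutants, a log2 fold change of 3.88 (SE 0.57, adjusted p = 0.00043). *Y68A4A.13* had 0.352, 0, 0.632, 0 and 0.657 CPM in wild type and 13.3, 3.39, 4.77, 3.82 and 7.29 CPM in mutants, a log2 fold change of 4.0 (SE 0.64, adjusted p = 0.00122). In both genes the lowest mutant library was above the highest wild-type library. *D1022.3*, annotated as a hydrolase, had 1.06, 1.69, 0.361, 0.367 and 0 CPM in wild type and 12.5, 8.87, 4.94, 3.56 and 4.96 CPM in mutants, a log2 fold change of 3.45 (SE 0.48, adjusted p = 0.000232). *C09B8.4* had 1.06, 1.51, 2.44, 0.826 and 1.5 CPM in wild type and 5.44, 29.7, 27.4, 7.37 and 2.63 CPM in mutants, a log2 fold change of 3.10 (SE 0.58, adjusted p = 0.00792). The mutant range of *C09B8.4* was wide, with replicates 2 and 5 far above replicates 1, 6 and 7, and without mutant replicate 5 the adjusted p was 0.056.

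Transport, cytoskeleton and stress genes were among the other rises. *tbb-6*, a β-tubulin gene known to respond to mitochondrial stress, had 2.11, 0.753, 1.63, 1.19 and 2.35 CPM in wild type and 5.83, 5.74, 6.04, 5.18 and 5.48 CPM in mutants. Its groups were well apart, with a log2 fold change of 1.77 (SE 0.28, adjusted p = 0.0012). The 20 listed genes of mitochondrial stress and shape held no call (median 0.19), where 0.55% of all tested genes were called. With the replicate block 1 of them was called (*gpd-2*, higher). Without the block the mitochondrial chaperone gene *hsp-6* was at 0.33 (adjusted p = 0.901). *cdr-4* of the cadmium-responsive family was higher by 1.15 on the log2 scale (adjusted p = 0.0151), the ABC transporter gene *pgp-14* by 2.25 (adjusted p = 0.0111), the cation-transporting ATPase gene *catp-3* by 1.74 (adjusted p = 0.0111) and the thioester protein gene *tep-1* by 1.05 (adjusted p = 0.041). Of the 10 fits that left out 1 library, 6 lost the call of *tep-1* (adjusted p up to 0.206). For *cdr-4* and *pgp-14* 3 fits each did so, and for *catp-3* 1. *tep-1* was also lost with limma-voom, in the 10 supplemented libraries alone (adjusted p = 0.154) and without the series term (adjusted p = 0.904). *pgp-14* overlaps *nhr-27* on the same strand, and its mutant values of 39.5, 22.2, 8.09, 4.27 and 12.5 CPM covered a wide range above the wild-type values of 2.82, 3.39, 2.44, 0.459 and 4.23 CPM.

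The troponin T gene *tnt-3* was higher by 1.43 (adjusted p = 0.0239), with 8.1, 15.2, 19.7, 16.15 and 8.92 CPM in wild type and 25.7, 34.2, 61.2, 56.9 and 16.07 CPM in mutants. Beside it, the 5 body wall muscle markers were not called (median 0.22), and their summed level was 2316 to 4053 CPM in mutants and 785.8 to 4080 CPM in wild type. A part of muscle content in the change of *tnt-3* was not tested. *tnt-3* lost its call without wild-type replicate 1 or 7 or mutant replicate 2, 5 or 6 (adjusted p up to 0.125).

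The other higher genes were *Y58A7A.5* (1.96), *K04F1.9* (1.93), *feh-1* (2.004), *F15E6.4* (2.03), *B0238.12* (1.97), *B0205.13* (2.19), *sdz-8* (1.3), *T25F10.3* (0.93) and *parg-2* (3.0, a poly(ADP-ribose) glycohydrolase gene), each given as its log2 fold change with adjusted p between 0.00122 and 0.0407. *feh-1* encodes the worm relative of the amyloid precursor-binding protein Fe65, and noncoding RNAs overlap it on the opposite strand. The remaining 3 had almost no counts in wild type. *Y58A7A.4* had 1 count in wild type and 38 in mutants over 5 libraries each, a ratio of 29.9 per count sequenced (95% exact interval 5.04 to 1210). *C04C11.25* had 3 and 131 counts, a ratio of 34.3 (11.5 to 168), and *C16E9.1*, like a matrilin, 3 and 33 counts, a ratio of 8.64 (2.71 to 44.0). These intervals cover counting error only. Of the 10 fits that left out 1 library, 7 lost the call of *Y58A7A.4* and 9 that of *C16E9.1*, while *C04C11.25* kept its call in each. *C16E9.1* was also not called with DESeq2 (adjusted p = 0.0931).

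Fewer genes fell, and of them only *sod-3* was in a pathway list. The pyridoxal phosphate-binding protein gene *F09E5.8*, like human PROSC, had 45.5, 40.9, 38.7, 49.8 and 49.95 CPM in wild type and 7.03, 5.74, 9.28, 12.5 and 7.44 CPM in mutants. Both groups were tight and far apart, with a log2 fold change of -2.46 (SE 0.22, adjusted p = 1.97e-07). *Y48E1B.8* had 27.5, 34.3, 7.22, 5.87 and 6.20 CPM in wild type and 1.19, 3.91, 0.34, 1.23 and 1.05 CPM in mutants. The olga libraries of wild type were the highest, the groups did not overlap, and the log2 fold change was -3.23 (SE 0.33, adjusted p = 1.84e-06). *Y48E1B.8* is overlapped by *clec-145* on the opposite strand.

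*K09C6.9* had 6.69, 3.58, 9.57, 4.04 and 17.2 CPM in wild type and 1.72, 0, 1.28, 0.906 and 1.13 CPM in mutants, with no overlap and a log2 fold change of -2.93 (SE 0.44, adjusted p = 0.000546). *nas-3*, an astacin metalloprotease gene, had 6.69, 23.0, 27.8, 7.80 and 13.8 CPM in wild type and 2.12, 8.08, 1.11, 1.16 and 1.58 CPM in mutants. Mutant replicate 2 of *nas-3* lay within the wild-type range and the other 4 mutant libraries below it, with a log2 fold change of -2.85 (SE 0.54, adjusted p = 0.00792). *T22B7.7*, like the human acyl-CoA thioesterase ACOT9, had 14.4, 13, 7.77, 5.14 and 15.9 CPM in wild type and 2.52, 6.52, 1.87, 1.75 and 4.13 CPM in mutants, a log2 fold change of -1.83 (SE 0.38, adjusted p = 0.0171). Only mutant replicate 2 reached the wild-type range of *T22B7.7*, whose call was lost without wild-type replicate 7 or mutant replicate 1, 5 or 6 (adjusted p up to 0.086).

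*R102.11* (chromosome IV, 10698376 to 10699760) and *R102.6* (10699426 to 10706190) overlap on the same strand and fell together. *R102.11* had 9.51, 13.6, 3.79, 4.04 and 10.2 CPM in wild type and 1.86, 2.35, 0.766, 1.49 and 1.73 CPM in mutants, a log2 fold change of -2.32 (SE 0.34, adjusted p = 0.00043). *R102.6* had 3.88, 7.72, 1.81, 2.39 and 7.14 CPM in wild type and 1.59, 2.87, 0.936, 0.518 and 0.826 CPM in mutants, a log2 fold change of -1.99 (SE 0.41, adjusted p = 0.0171). Since reads may be shared, they are not separate evidence, and *R102.6* lost its call without wild-type replicate 2 or 7 or mutant replicate 5, 6 or 7 (adjusted p up to 0.09). *D1086.3*, the most abundant of the 12, had 438, 801, 310.3, 385 and 544 CPM in wild type and 161, 174, 121, 231 and 268 CPM in mutants. The groups did not overlap, and the log2 fold change was -1.38 (SE 0.29, adjusted p = 0.0171), lost without wild-type replicate 2 or mutant replicate 1, 2 or 5 (adjusted p up to 0.086).

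*ZK455.5* had 4.58, 0.753, 3.16, 4.77 and 5.45 CPM in wild type and 0.398, 0.261, 0.681, 0.97 and 1.65 CPM in mutants, a log2 fold change of -2.16 (SE 0.44, adjusted p = 0.0142), and without mutant replicate 5 the adjusted p was 0.075. *W02D9.6* had 5.29, 3.01, 3.70, 5.05 and 7.04 CPM in wild type and 2.12, 2.09, 1.36, 0.776 and 1.5 CPM in mutants, a log2 fold change of -1.79 (SE 0.34, adjusted p = 0.00792). The histone H4 gene *his-38* had 4.58, 7.72, 3.79, 2.57 and 3.85 CPM in wild type and 1.59, 2.87, 1.70, 1.42 and 1.28 CPM in mutants, a log2 fold change of -1.37 (SE 0.30, adjusted p = 0.03). *ZK455.5* and *his-38* overlapped between the groups in a single library, wild-type replicate 2 for the former and mutant replicate 2 for the latter. *his-38* was the single call among 19 histone genes, whose near-identical copies can share reads, and leaving out any of 8 libraries ended it.

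Further lower genes included *sod-3*, the mitochondrial manganese superoxide dismutase gene known as a target of DAF-16. It had 2.11, 1.88, 1.26, 0.55 and 1.78 CPM in wild type and 0, 0, 0, 0.259 and 0 CPM in mutants, so 4 of 5 mutant libraries held no count. The log2 fold change of *sod-3* was -3.97 (SE 0.78, adjusted p = 0.0111), and without mutant replicate 5 the adjusted p was 0.052. *sod-3* overlaps *C08A9.3* and *lido-1* on the opposite strand, and it was the single call among 21 immune and stress reporter genes (median 0.03, with *irg-7* called higher under the replicate block). The globin gene *glb-1* had 227, 207, 113.97, 117 and 191 CPM in wild type and 96.2, 88.4, 75, 67.3 and 93.8 CPM in mutants, a log2 fold change of -1.03 (adjusted p = 0.0183) with no overlap. *glb-1* lost its call without wild-type replicate 1, 2 or 7 or mutant replicate 1, 2 or 5 (adjusted p up to 0.092). Without the series term its adjusted p was 0.168. The other lower genes, by log2 fold change, were *scl-6* (-4.05, of the SCP family), *K02A2.5* (-3.51), *col-150* (-2.30, a collagen), the noncoding *H09G03.1* (-1.75), *Y59H11AR.4* (-1.35) and *scb-1* (-1.08), with adjusted p between 0.00792 and 0.0381. Mean counts over the 10 libraries were only 8 for *scl-6*, 5.9 for *K02A2.5* and 8.5 for *col-150*. Of the 10 fits that left out 1 library, 9 lost the call of *col-150*, 7 that of *scb-1* and 5 that of *Y59H11AR.4*. *scl-6*, *K02A2.5* and *H09G03.1* kept theirs in each. *K02A2.5* and *scb-1* each overlap a gene on the opposite strand. *Y110A2AL.1* had 126 counts in wild type and 1 in mutants, a ratio of 160.4 (95% exact interval 28.3 to 6384), but it was at 0.352, 0, 3.25, 3.21 and 5.07 CPM in wild type, near or at no count in the olga libraries. Of the 34 called genes without full values under the naming rule, 24 lost their call in at least 1 fit that left out a library, with adjusted p up to 0.296.

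In 35 gene families with 1140 tested genes, 13 genes were called (1.14%, beside 0.55% of all genes tested) and 25 families had none. Families without a call included nuclear hormone receptors (132 tested, median 0.12), cytosolic ribosomal proteins (77 tested, median -0.08), C-type lectins (65 tested, median 0.00), oxidative phosphorylation subunits (31 tested, median 0.05) and heat shock and DnaJ proteins (44 tested, median 0.01). Cuticle collagens held 1 higher and 1 lower gene among 58 (median -0.11), and neuropeptides and insulins the single call of *ins-13* among 116 (median 0.03). All 9 tested major sperm protein genes had positive log2 fold changes (median 1.43) and none was called. They are near-identical copies that can share reads, and their summed level was 11.1 to 22.2 CPM in mutants and 1.03 to 26.2 CPM in wild type.

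**Figure D4:**
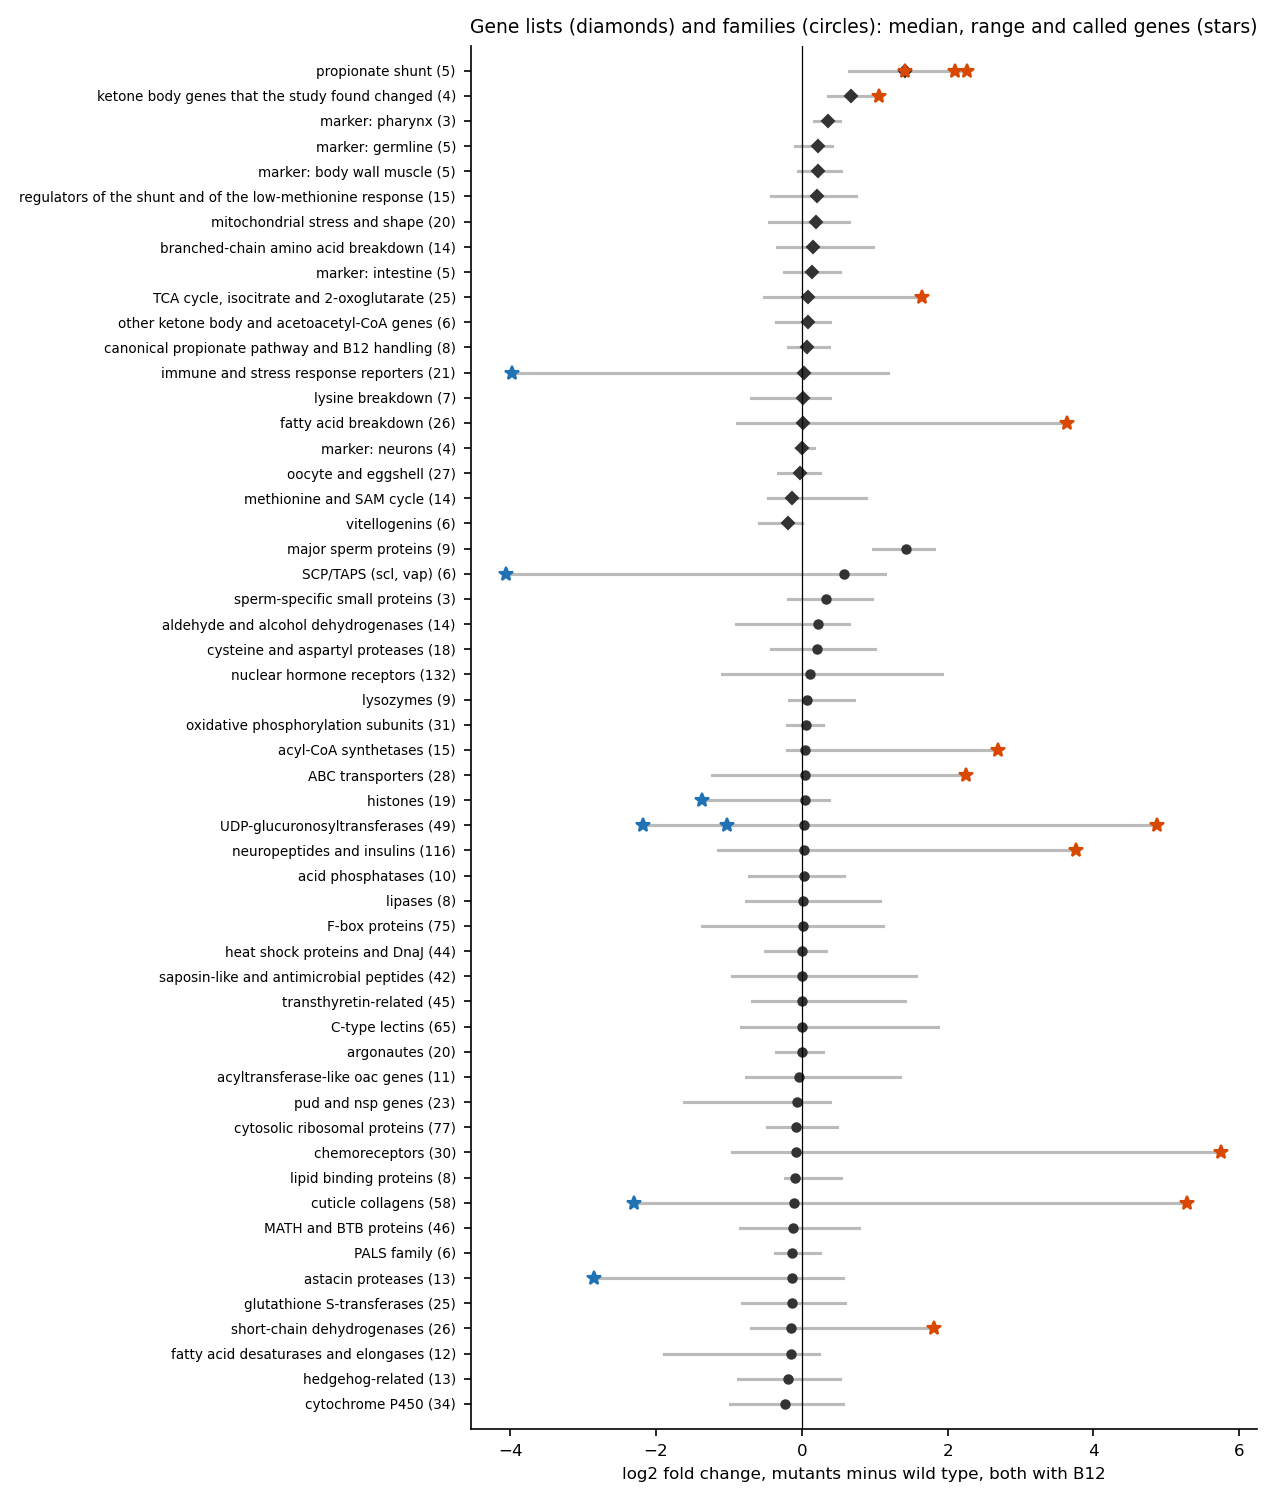
Each row is a gene list (diamond) or family (circle) with at least 3 tested genes, the number tested in parentheses. The symbol marks the median log2 fold change between supplemented mutants and wild type, the grey line runs from the lowest to the highest member, and stars mark called genes (orange higher, blue lower). The propionate shunt has the highest median among the lists at 1.41. Among the families the major sperm proteins, with no called gene, lie at 1.43, and most other medians lie near 0.

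None of the tested markers of intestine (5), body wall muscle (5), pharynx (3), hypodermis (1 of 4 listed), neurons (4) and germline (5) was called. No call was made among 27 oocyte and eggshell genes (median -0.02) or 6 vitellogenin genes (median -0.19) either. Of all 11270 tested genes only 0.55% were called, so so few genes without a call say little about tissue content. The summed level of the intestine markers was 635.7 to 1007 CPM in mutants and 362.4 to 871.0 CPM in wild type, and that of the germline markers 1184 to 1913 and 1220 to 1891 CPM. Zygotic embryo genes summed to 0.17 to 0.75 CPM in mutants and 0.35 to 1.88 CPM in wild type, and 4 sperm genes besides the major sperm proteins to 0.26 to 0.84 and 0.00 to 0.64 CPM, too low to be tested. The part of tissue content in the changes above was not tested.

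Most genes called with vitamin B12 were also called between the strains without it. Between the unsupplemented strains 205 genes were higher (1.82%) and 112 lower (0.994%), and 44 of these 317 genes (13.9%) were among the 62 called with the vitamin (71%), all in the same direction. *ugt-32* had log2 fold changes of 4.86 with and 4.87 without the vitamin, *F20G2.1* of 4.29 and 4.05, *F09E5.8* of -2.46 and -2.43, and *icl-1* of 1.65 and 1.90. The other 18 genes, 14 higher and 4 lower, were called only with the vitamin. In each the difference without it was smaller, which this choice of genes favours. They include *acdh-1*, *hach-1*, *hphd-1*, *acdh-2*, *ins-13*, *acs-2*, *dhs-25*, *col-133*, *C09B8.4*, *tnt-3*, *glb-1* and *sod-3*. *acdh-2* averaged 4.04 ± 3.58 and 51.1 ± 26.7 CPM (SD, n = 5) with the vitamin and 79.4 ± 44.2 and 194 ± 20.6 without it, and *acs-2* averaged 8.43 ± 2.27 and 58.5 ± 46.0 with it and 161 ± 57.4 and 396 ± 99.9 without it, wild type first.

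Whether the strain difference depended on the vitamin passed the test for 5 genes (0.0444%), none of which was called between the supplemented strains. Of the 18 genes called only with the vitamin, 14 had an unadjusted p under 0.05 for this difference, and the lowest adjusted p was 0.281. With the replicate block 13 genes passed, and none of the 62 was among them. A call with the vitamin and not without it therefore does not show here that the strain difference changed.

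**Figure D5:**
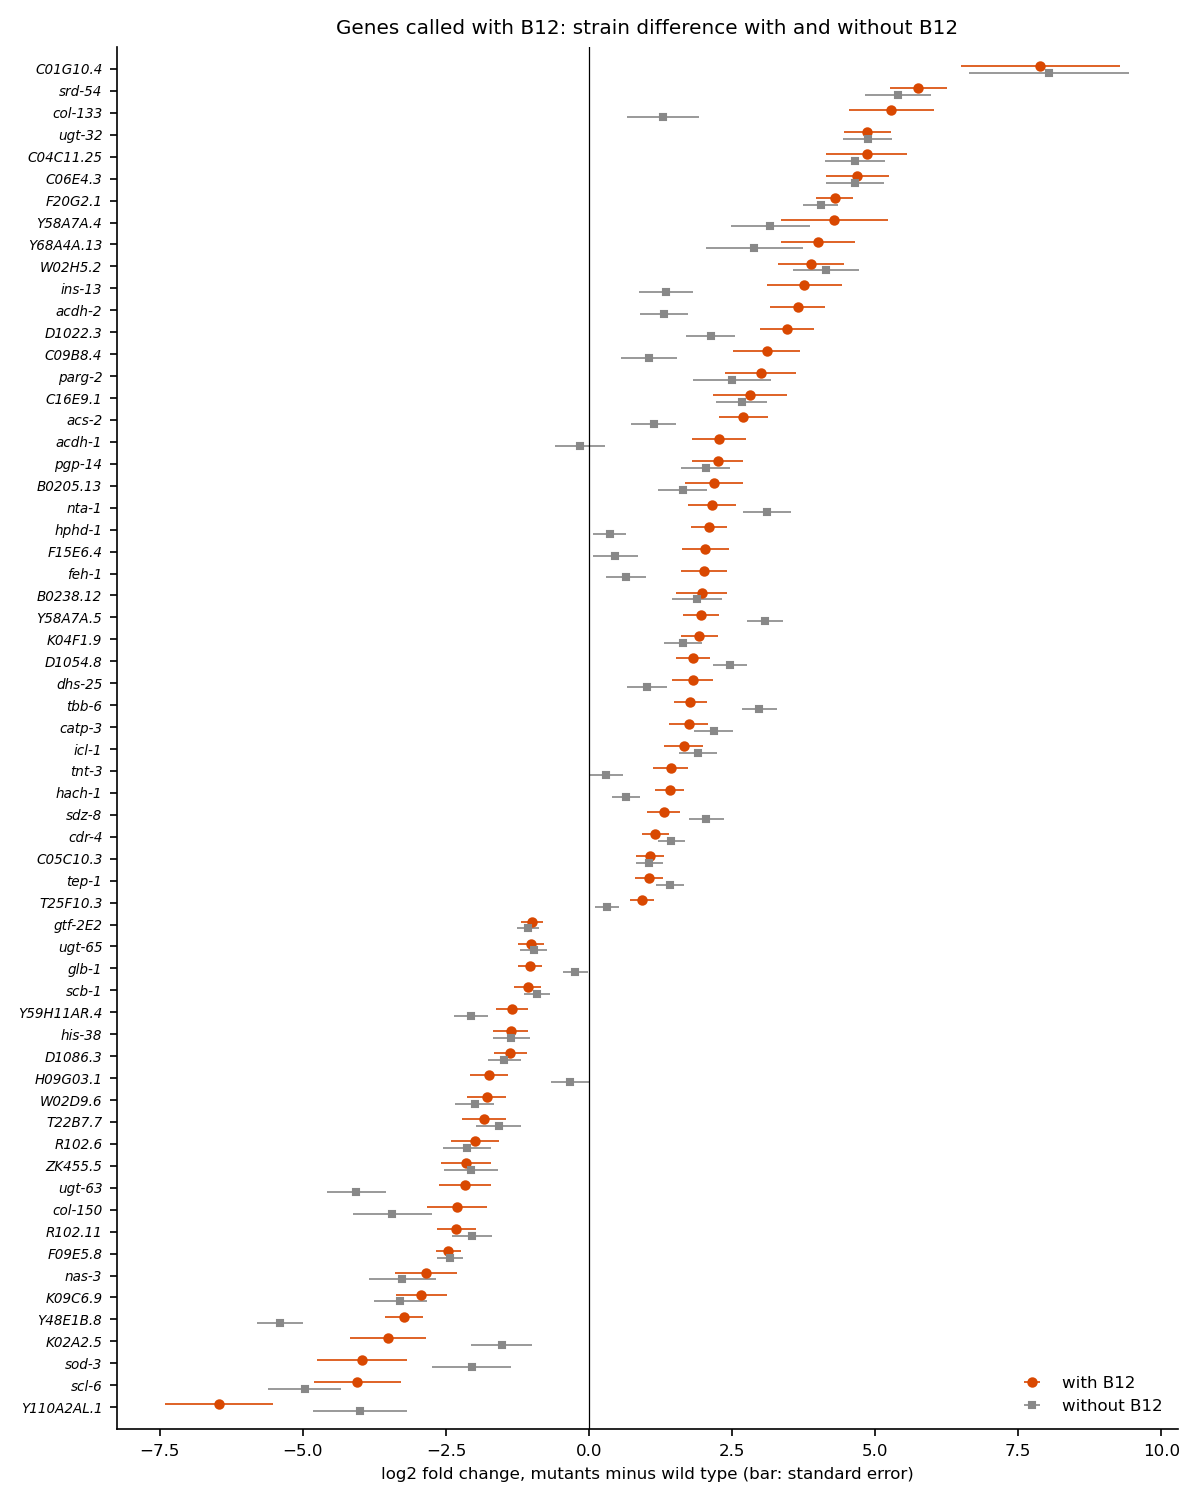
Log2 fold changes between mutants and wild type are shown for the 62 called genes with vitamin B12 (orange circles) and without it (grey squares), with bars of 1 standard error. Some pairs of symbols lie close together, as for *ugt-32* at 4.86 and 4.87, and others lie apart. *acdh-1*, *hphd-1* and *col-133* are farther from 0 with the vitamin. *Y48E1B.8* (-3.23 with and -5.40 without) and *ugt-63* (-2.17 and -4.07) are farther from 0 without it.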

How the data were processed

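RNA-seq counts were taken for the 20 libraries, and the 10 with vitamin B12 were compared. The deposited table of read counts was made by the authors from Cel-seq2 libraries by demultiplexing, trimming with Trimmomatic 0.32, STAR alignment and ESAT counting, and it leaves out pseudogenes. The genome build, strand setting and use of molecular identifiers are not given in the sources used here. The table holds whole numbers for 22736 genes, all 20 value columns were used, and 22497 identifiers have a symbol in the WBcel235 annotation of Ensembl release 115.

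Counts were filtered with filterByExpr by group (11270 genes), normalized by TMM and fitted in all 20 libraries with edgeR 4.0.16 (glmQLFit and glmQLFTest, R 4.3.3), with group and library series as terms and Benjamini-Hochberg adjustment. The study states that replicates were divided over different sequencers. That the olga and s names mark this division is an inference from the number of replicates in each. Calls needed an adjusted p below 0.05 together with a fold change above 1.5. CPM is the count divided by the library total. A count of 0 was read against a floor of 3 counts, and intervals and floors cover counting error only. The procedure was also run on simulated counts. These held no series or replicate effect, so that run cannot speak for how the fit handles the series.

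Same-numbered libraries deviated together from their group means, with correlations of 0.38 to 0.67 in the 5 pairs. The median for differently numbered libraries was -0.30. Same-numbered libraries always share a series, so these values cannot tell pairing from series. With the series removed the correlations were -0.07, 0.14, 0.11, 0.43 and 0.46 for replicates 1, 2, 5, 6 and 7. The median for differently numbered libraries was then -0.07. That the numbers pair the libraries is therefore an assumption. A fit with replicate number as a block was run beside the one above.

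Full values are given for *dhgd-1*, the 5 shunt genes, 4 ketone body genes and, per direction, the 12 largest log2 fold changes of called genes that averaged 20 or more counts in the 10 libraries and moved alike in all 5 same-numbered pairs. Every called gene is named. Full values of a few further called genes were given after their values were seen. The members, gene lists and rules were chosen with earlier results of these data known. Alternatives were the block, no series term, 2 other normalizations, no filter, no fold minimum, DESeq2 1.42.0, limma-voom (limma 3.58.1), the 10 libraries alone, each series alone and each library left out. Figures were drawn with matplotlib 3.10.9 in Python 3.11.15.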

Additional observations from a re-analysis of the deposited data

Results flagged for a closer look

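In 68 combinations of a gene with full values and a supplemented group, 1 library stood far from the other 4 in 8. For independent, normally spread values about 1 in 20 groups, or 3.4, would do so. CPM values of genes chosen mostly for large differences need not be of that kind, so 3.4 is only a rough guide. In wild type these were replicate 5 for *acdh-1* (30.2 CPM), *acdh-2* (10.29 CPM) and *ins-13* (1.53 CPM), each the highest of its group, and replicate 1 for *F20G2.1* (2.11 CPM). In mutants they were replicate 7 for *ugt-32* (46.9 CPM) and replicate 2 for *Y48E1B.8* (3.91 CPM), *nas-3* (8.08 CPM) and *his-38* (2.87 CPM), again the highest values. *ins-13* and *acdh-2* share an overlapping end and may share reads.

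The strain difference depended on vitamin B12 in 5 genes by edgeR's test of the difference, and in all 5 it was smaller or more negative with the vitamin. The difference of the log2 fold changes was -5.76 for *Y41C4A.32*, -4.41 for *warf-1*, an ARF-related gene, -3.27 for *pud-3*, -2.68 for *suro-1* and -1.38 for the lysozyme gene *lys-2*. All 5 were higher in unsupplemented mutants than in unsupplemented wild type, and none passed between the supplemented strains. *Y41C4A.32* averaged 124.0 ± 50.9 CPM (SD, n = 5) in unsupplemented mutants and between 2.01 and 4.02 CPM in the means of the other 3 groups. *lys-2* averaged 145.8 ± 34.4 CPM in unsupplemented wild type and 405.8 ± 93.2 CPM in unsupplemented mutants, but 473 ± 111 and 479.6 ± 102 CPM with the vitamin. *pud-3* has a neighbouring paralog, *pud-4*, with which it can share reads.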

How the results depend on the processing

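None of 68 genes, the 62 called and 6 others with full values, changed direction under any alternative that gave a value. Their calls between the supplemented strains kept their side of the threshold in 1070 comparisons with an alternative, were lost in 334 and gained in 11. Called higher, called lower and dependent on the vitamin were 39, 23 and 5 genes. With the replicate block they were 62, 45 and 13, and without the term for the library series 17, 9 and 2. Without the low-count filter they were 124, 70 and 80. With DESeq2 58 genes were higher, 47 lower and 22 dependent on the vitamin, and limma-voom gave 2 of the last kind. The 10 supplemented libraries alone gave 24 higher and 15 lower genes, the olga series alone 4 and 1, and the s series alone 9 and 8. Leaving out 1 library gave 24 to 40 higher, 12 to 29 lower and 3 to 7 dependent genes. Median-of-ratios size factors, library totals alone and no fold minimum stayed within 1.5 times. Of the 62 called genes, 61 were kept with DESeq2, 52 with limma-voom, 38 in the 10 libraries alone and 26 without the series term, and 59 had the same sign within both series. Over fits that left out 1 library, 29 genes kept their call in each, and without mutant replicate 5 the number kept was 35, the fewest. Depth limits the low end: 13 called genes had a mean count under 20.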

Other observations

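With the replicate number as a block, 23 further genes were higher and 22 lower in supplemented mutants. They were named after their values were seen. Beside *ech-6*, *alh-8* and *kat-1*, the higher ones include *acdh-9*, an acyl-CoA dehydrogenase gene (log2 fold change 1.00, block adjusted p = 0.00295), *folt-2*, a folate transporter gene (1.04, adjusted p = 0.0263), *gpd-2*, a glyceraldehyde-3-phosphate dehydrogenase gene (0.65, adjusted p = 0.0348), and the collagen gene *col-81* (2.08, adjusted p = 0.0333). The lower ones include the kinase gene *mnk-1* (-1.08, adjusted p = 0.0273), *hpl-2*, which encodes a heterochromatin protein of the HP1 type (-0.77, adjusted p = 0.038), *alh-9* (-0.69, adjusted p = 0.0348) and the collagen gene *col-95* (-1.08, adjusted p = 0.0305). None of these passed without the block.

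Called genes were spread over the nuclear chromosomes, with 4 of 1869 tested genes on chromosome I, 12 of 1873 on II, 4 of 1879 on III, 9 of 1863 on IV, 23 of 2092 on V and 10 of 1678 on X. Chromosome V held the highest share, 1.1%, against 0.641% on chromosome II, which carries *dhgd-1*. Few called genes were neighbours. Beside the overlapping pairs *ins-13* and *acdh-2* and *R102.11* and *R102.6*, *Y58A7A.4* and *Y58A7A.5*, both higher, lie 0.70 kb apart on chromosome V, and *ugt-63*, which is lower, lies 21.2 kb from the latter. On chromosome II, *K02A2.5* (lower), *srd-54* (higher) and *D1022.3* (higher) follow one another at gaps of 20.6 and 20.9 kb.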
